A study of Mus musculus with 6 samples.

Results

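The IgLON and NCAM adhesion genes considered here were Lsamp, Ntm, Negr1 and Opcml of the IgLON family, the neural cell adhesion molecule genes Ncam1 and Ncam2, and Igsf8. They were taken as the array features annotated to a single gene symbol among these names, which gave 7 genes with 1 probe set each, out of 19935 genes and 28815 probe sets in the table. The study compared cervical spinal cord of mouse embryos carrying a knockout of Nkx2.9, a gene of ventral progenitors that encodes a homeodomain protein, with wild-type cord at embryonic day 11.5, and its stated aim concerned the development of spinal accessory motor neurons. Dorsal cord and floor plate had been left out of the dissected tissue. There were 3 arrays per genotype, lettered A, B and C, and per-array values below are given in that order. The strain, the extent of the deletion, whether the mutant was homozygous and whether embryos were pooled are not stated in the sources used here. The p-values therefore reflect no more than the variation among these arrays. That variation may be technical, although the RNA Xist, given below, set knockout A apart from knockout B and C.

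IgLONs are small cell surface proteins made of immunoglobulin domains and held in the membrane by a GPI anchor. They bind one another in like and unlike pairs on neurons, and have been studied for their effects on neurite outgrowth and synapse formation. NCAM proteins carry immunoglobulin and fibronectin domains, bind between cells and signal through partners such as the FGF receptor, and Ncam1 is the main carrier of polysialic acid, a sugar chain that loosens adhesion along growing axons. Igsf8, also called EWI-2, is an immunoglobulin superfamily protein that associates with the tetraspanins Cd9 and Cd81.

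Each value was a log2 expression value centred on the probe set's own median over the 6 arrays, so differences between arrays could be read but levels could not. Levels of different members could therefore not be ranked, and whether a marker of the tissue was present at all could not be checked. Nkx2-9, the targeted gene, stood at -0.071, 0.26 and 0.11 in the knockout arrays, against -0.21, 0.071 and -0.11 in the wild-type arrays. It was not lower in the knockout group (log2 difference 0.18, SE 0.11, adjusted p = 0.812 in limma), and where its probes lie relative to the deletion was not known, so every knockout array below is one only by its label. Xist, the RNA of the inactive X chromosome, was at 4.56 and 4.91 in knockout B and C and between -0.25 and 0.11 on the other arrays, so the sex of the embryos differed within the knockout group and between the groups. The spread of values over all probe sets was widest in knockout C (SD 0.191) and next in wild type B (SD 0.14), against 0.0979 to 0.124 on the others, and no 2 arrays held identical values.

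Promoter windows from RefSeq (build GRCm38.p6, 250 bases before to 50 after a transcript start) were found for 6 of the 7 genes, in 8 windows, with no entry for Ncam1. The 250 bases before the start are printed for Lsamp, the IgLON gene with the lowest p below, and for Ncam2, the gene with the largest difference. They are also printed for Igsf8, the gene whose groups did not overlap, and for Ntm, which held the only match to an NK-2 core. Lsamp and Ntm had 2 windows each, of which 1 is printed. Capitals mark matches, on either strand, to AAGTG, the core of sites bound by NK-2 homeodomain proteins, and to CANNTG, the E-box bound by basic helix-loop-helix factors. All run 5′ to 3′ in the direction of the gene, on the plus strand for Lsamp (chr16:39984114-39984363), Ncam2 (chr16:81200447-81200696) and Igsf8 (chr1:172312117-172312366) and on the minus strand for Ntm (chr9:29413453-29413702).
Lsamp: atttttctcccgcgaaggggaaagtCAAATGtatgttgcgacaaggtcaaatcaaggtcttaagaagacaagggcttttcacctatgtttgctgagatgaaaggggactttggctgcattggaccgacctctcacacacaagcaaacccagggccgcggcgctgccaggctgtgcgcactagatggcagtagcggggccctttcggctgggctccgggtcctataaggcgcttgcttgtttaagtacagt
Ncam2: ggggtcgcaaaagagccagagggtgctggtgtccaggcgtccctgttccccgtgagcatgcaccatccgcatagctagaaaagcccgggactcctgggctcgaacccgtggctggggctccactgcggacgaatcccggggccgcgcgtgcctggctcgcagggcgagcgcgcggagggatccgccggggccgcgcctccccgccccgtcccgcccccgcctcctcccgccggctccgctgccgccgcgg
Igsf8: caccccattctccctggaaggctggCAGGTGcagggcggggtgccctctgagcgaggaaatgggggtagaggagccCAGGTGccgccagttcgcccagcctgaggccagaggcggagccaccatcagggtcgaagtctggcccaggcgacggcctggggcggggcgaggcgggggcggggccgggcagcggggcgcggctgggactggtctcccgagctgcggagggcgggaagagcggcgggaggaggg
Ntm: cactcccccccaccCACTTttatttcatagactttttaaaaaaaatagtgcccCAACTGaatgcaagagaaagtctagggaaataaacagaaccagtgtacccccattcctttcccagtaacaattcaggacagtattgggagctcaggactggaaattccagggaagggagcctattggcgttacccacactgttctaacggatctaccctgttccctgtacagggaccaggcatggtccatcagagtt
AAGTG matched in 1 of the 8 windows, the printed one of Ntm, where it reads CACTT on the printed strand. The other window of Ntm held no AAGTG. Among 32851 promoter windows of the same length, 46.4% held a match. An E-box matched in 6 of the 8 windows and in 72.3% of all windows. No match of one motif overlapped one of the other. Igsf8 held 2 E-boxes of the same letters, while the windows of Ncam2 and Negr1 held neither motif. The Ncam2 window was 75.7% G and C and the Igsf8 window 74.3%, above 96.7% and 95.6% of all windows, whereas the printed Lsamp window, at 53.0%, lay near the median of 52.7%. Ntm and Opcml are next to each other among the protein-coding genes of chromosome 9.

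All 4 IgLON members were lower on average in the labelled knockout arrays, by 1.10-fold to 1.21-fold, and none passed limma's test over the whole table. Iglon5, placed with the relatives below, was at -0.14 (SE 0.080) with another order of arrays. Its lowest array was knockout B (-0.23), and knockout A (0.053) lay above wild type A and C. Lsamp, which encodes the limbic system-associated membrane protein, stood at -0.12, 0.001 and -0.31 in the knockout arrays, against -0.001, 0.27 and 0.064 in the wild-type arrays. The groups touched, with knockout B above wild type A by 0.002, and the difference was -0.25 on the log2 scale (SE 0.10, 95% interval -0.50 to -0.005, unadjusted p = 0.047, adjusted p = 0.812 in limma). Opcml, the gene of the opioid-binding cell adhesion molecule, stood at -0.18, 0.058 and -0.38 in the knockout arrays, against -0.053, 0.31 and 0.053 in the wild-type arrays. Knockout B lay within the wild-type values, and the difference was -0.27 (SE 0.14, 95% interval -0.60 to 0.060, adjusted p = 0.812 in limma).

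Negr1, or Kilon, a neuronal growth regulator, had the widest spread of the IgLON genes. Its values were -0.18, 0.18 and -0.43 in the knockout arrays, against -0.14, 0.41 and 0.14 in the wild-type arrays. Knockout B exceeded wild type A and C, and the difference of -0.28 was smaller than the SD of the knockout group (0.31) and close to that of the wild type (0.27; SE 0.19, 95% interval -0.74 to 0.18, adjusted p = 0.812 in limma). Ntm, the gene of neurotrimin, had the smallest difference of the 4 IgLON members. It stood at -0.17, 0.17 and -0.16 in the knockout arrays, against -0.17, 0.26 and 0.16 in the wild-type arrays. Wild type A was the lowest array of all for Ntm, and the difference of -0.13 was within the SD of either group (0.19 and 0.23; 95% interval -0.47 to 0.21, adjusted p = 0.873 in limma). The neighbouring Opcml, by contrast, had its lowest value in knockout C; whether the differences of the 2 genes were unequal was not tested.

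**Figure D1:**
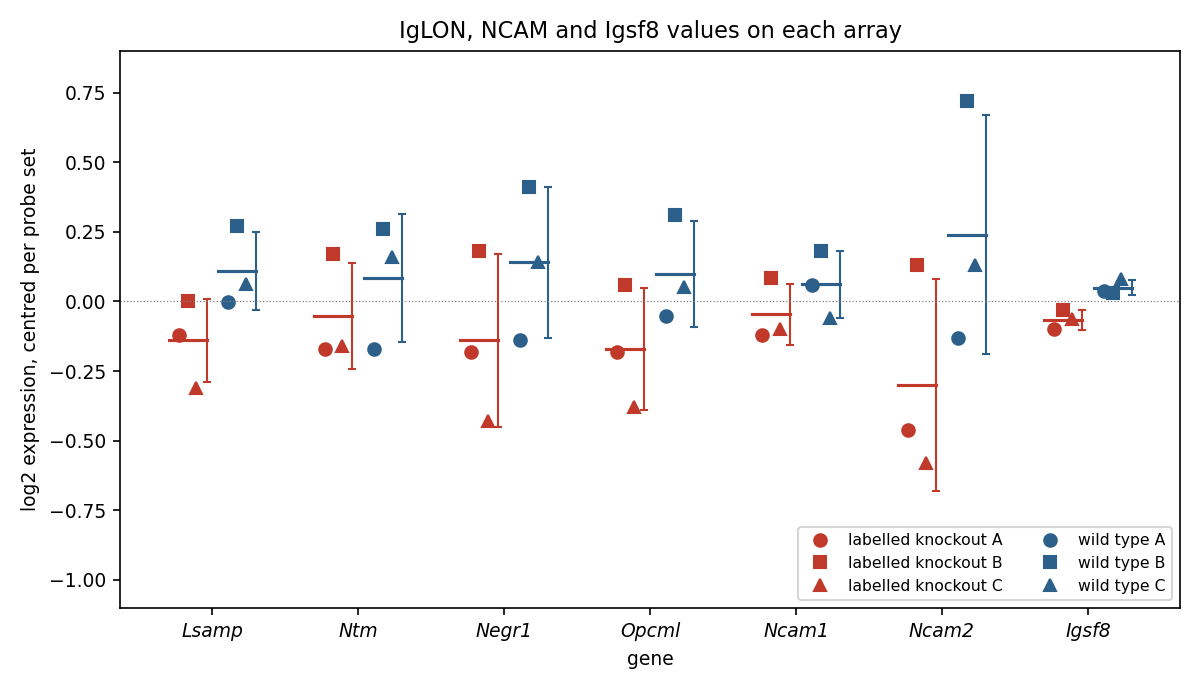
Log2 expression, centred per probe set, of the 7 genes (horizontal axis) on each array. Red marks are labelled knockout arrays and blue marks wild type, with circles, squares and triangles for A, B and C, a horizontal line for the group mean and a bar for the SD (n = 3); wild type B is the highest array for 6 of the 7 genes, and the groups lie apart only for Igsf8.

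Ncam2 had the largest difference of the 7 genes and also the largest spread. The gene encodes a membrane adhesion protein known best from olfactory axons. It stood at -0.46, 0.13 and -0.58 in the knockout arrays, against -0.13, 0.72 and 0.13 in the wild-type arrays. Knockout B was level with wild type C and above wild type A, so the groups overlapped. The difference was -0.54 (1.46-fold lower in the labelled knockout arrays, SE 0.27, 95% interval -1.18 to 0.10, adjusted p = 0.812 in limma). Its range of 1.30 over the 6 arrays was wider than that of 99.4% of complete probe sets.

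Ncam1, the gene of the neural cell adhesion molecule itself, varied much less. Its values were -0.12, 0.084 and -0.10 in the knockout arrays, against 0.059, 0.18 and -0.059 in the wild-type arrays. Knockout B was again above 2 of the wild-type arrays, here A and C. The difference of -0.11 (SE 0.084, 95% interval -0.31 to 0.10, adjusted p = 0.83 in limma) was no larger than the SD of the groups (0.11 and 0.12).

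Igsf8 was the only member whose groups did not overlap. It stood at -0.10, -0.032 and -0.064 in the knockout arrays, against 0.039, 0.032 and 0.080 in the wild-type arrays. The highest knockout array lay 0.064 below the lowest wild-type array. The difference was small, -0.12 or 1.08-fold, but exceeded the SD within each group (0.036 and 0.026), with SE 0.042, a 95% interval of -0.22 to -0.016 and unadjusted p = 0.0298, and it did not pass over the whole table (adjusted p = 0.812 in limma). Its SD within groups was smaller than that of most probe sets, with 8.53% below it, whereas for Ncam2 98.9% and for Negr1 96.7% were below.

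As a set, 7 of 7 members were lower in the labelled knockout arrays, with a median log2 difference of -0.25 and a range of -0.54 to -0.11. Over all probe sets 45.0% were lower and the median was 0.009. No member passed an adjusted p of 0.05 in limma, nor did any of the 28815 probe sets (0%); 1605 of them (5.57%) had an unadjusted p under 0.05. Without knockout A 5 probe sets passed, none of them a member: those of Xist, of the Y-linked genes Kdm5d, Eif2s3y and Uty, and 1 without a single symbol, all named after their values were seen. Below that unadjusted p and lower were 2 members, Lsamp and Igsf8, against 2.50% of all probe sets. That count changed when single arrays were left out, which also left fewer arrays to test with. It was 0 without knockout A, wild type B, knockout C or wild type C, 5 without knockout B and 1 with array weights. The difference of Lsamp was -0.26 without knockout A and -0.28 without wild type C, but -0.17 without wild type B or knockout C. That of Igsf8 stayed between -0.13 and -0.10 with any single array left out. The groups lay apart with the knockout lower for 1 member, against 4.25% of complete probe sets. The members were chosen with earlier results of these arrays known, so these counts describe them and are no test of the set.

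**Figure D2:**
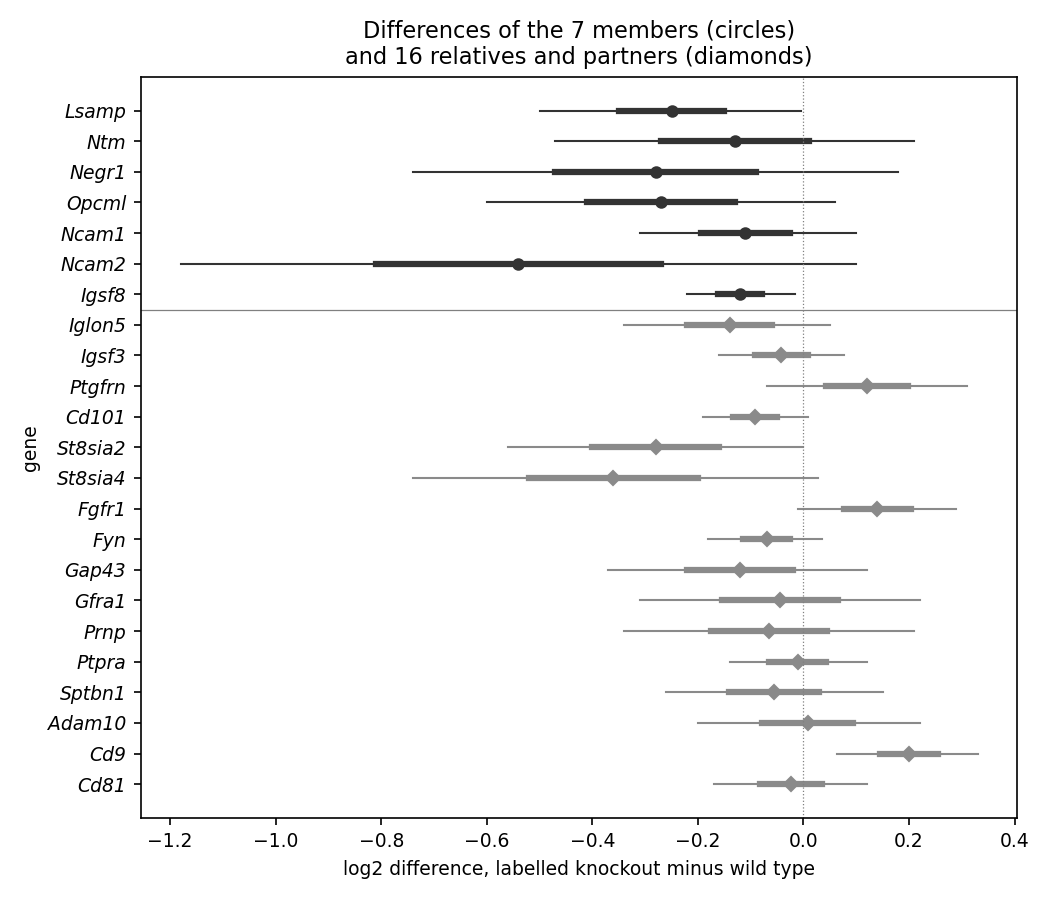
Log2 difference, labelled knockout minus wild type, for the 7 members (dark circles) and 16 relatives and partners (grey diamonds). Thick lines are the SE and thin lines the 95% interval from limma; the members lie between -0.54 and -0.11 and the others between -0.36 and 0.20.

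Much of the difference in 6 of the members came with 2 arrays. Wild type B was the highest of the 6 arrays for 6 members (all but Igsf8), as it was for 18.0% of complete probe sets, and knockout C was the lowest for 4 members (Lsamp, Negr1, Opcml and Ncam2), as for 18.5%. Both held for the same 4 members, against 6.35% of complete probe sets. Within the knockout group, array B was the highest for all 7 members, as for 33.7% of complete probe sets. Knockout B and C stood at opposite ends of the group for Lsamp, Negr1, Opcml and Ncam2. Xist was high in both of these arrays, and the part of embryo sex in the values was not tested.

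Leaving out wild type B gave a log2 difference of -0.31 for Ncam2, -0.17 for Lsamp, -0.14 for Negr1, -0.17 for Opcml, -0.046 for Ncam1 and -0.044 for Ntm. Leaving out knockout C gave -0.41 for Ncam2, -0.17 for Lsamp, -0.14 for Negr1, -0.16 for Opcml, -0.078 for Ncam1 and -0.083 for Ntm. Leaving out knockout B moved the values the other way, to -0.76 for Ncam2, -0.32 for Lsamp, -0.44 for Negr1, -0.39 for Opcml, -0.17 for Ncam1 and -0.24 for Ntm. Without knockout A Ncam1 was at -0.071 and Ntm at -0.077, without wild type A Negr1 was at -0.42 and Ntm at -0.26, and without wild type C Ncam1 was at -0.17. None of these settings turned the sign of a member. Without wild type B and knockout C together, a setting added after the data were seen, Igsf8 was at -0.13, Ncam2 at -0.17, Lsamp at -0.090 and Opcml at -0.061, while Ncam1 was at -0.017, Negr1 at 0.002 and Ntm at 0.009. For genes with these arrays at the extremes that choice narrows the difference by its construction. Igsf8 stayed between -0.13 and -0.10 whichever single array was left out.

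**Figure D3:**
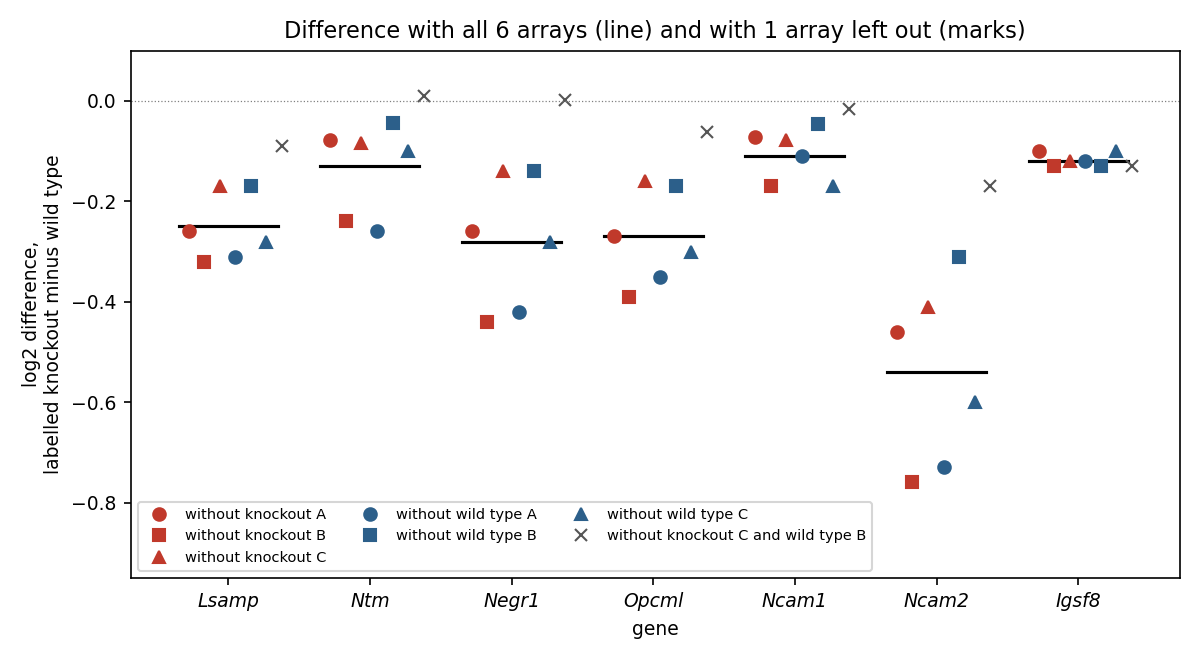
Log2 difference, labelled knockout minus wild type, of each gene with all 6 arrays (black line), with 1 array left out (marks, red for a knockout and blue for a wild-type array) and without knockout C and wild type B (cross). The marks of Igsf8 stay between -0.13 and -0.10, while those of Ncam2 run from -0.76 to -0.31 for single arrays.

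Markers of cell types also varied over the 6 arrays. The median over 12 neuron markers was -0.052, -0.001 and -0.17 in the knockout arrays, against 0.038, 0.15 and -0.013 in the wild-type arrays, and 11 of the 12 were lower in the labelled knockout arrays. Wild type B was thus highest and knockout C lowest for the neuron markers too, as for the median of the members, which was -0.17, 0.084 and -0.31 in the knockout arrays, against -0.053, 0.27 and 0.080 in the wild-type arrays. The order of the arrays between differed. Wild type A came next after wild type B for the neuron markers, but below knockout B and wild type C for the members. Cell cycle genes ran the other way, with a median over 10 genes of 0.23 in knockout C, 0.20 in knockout A and -0.52 in wild type B, against -0.10 to 0.032 on the others. Mesenchyme markers (9 genes) had a median of 1.70 in knockout C and of -0.090 to 0.17 elsewhere. Single mesenchyme markers ran from -0.24 to 3.31 in knockout C, and from -2.02 to 1.66 in wild type B, where the median was 0.17. Vessel markers (6 genes) had a median of 0.76 in knockout C and of -0.11 to 0.11 elsewhere. The 10 neural progenitor markers had medians between -0.087 and 0.037 on all arrays, with single markers from -0.40 in wild type B to 0.31 in knockout A. Between the groups the median log2 difference was -0.14 for the neuron markers, 0.30 for cell cycle genes (10 of 10 higher), 0.50 for mesenchyme (9 of 9 higher) and 0.26 for vessels (5 of 6 higher). It was 0.015 for the progenitor markers and -0.022 for 6 motor neuron genes, which ran from -0.40 to 0.18, as it was for 5 dorsal root ganglion genes. The median was 0.047 for 3 neural crest genes, 0.22 for 4 erythroid genes, -0.044 for 4 macrophage genes and -0.026 for 3 muscle genes. No marker of these lists passed an adjusted p of 0.05 in limma. In such tissue samples fewer cells of a type and less RNA per cell cannot be told apart, and the part of these markers in the differences of the members was not tested.

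**Figure D4:**
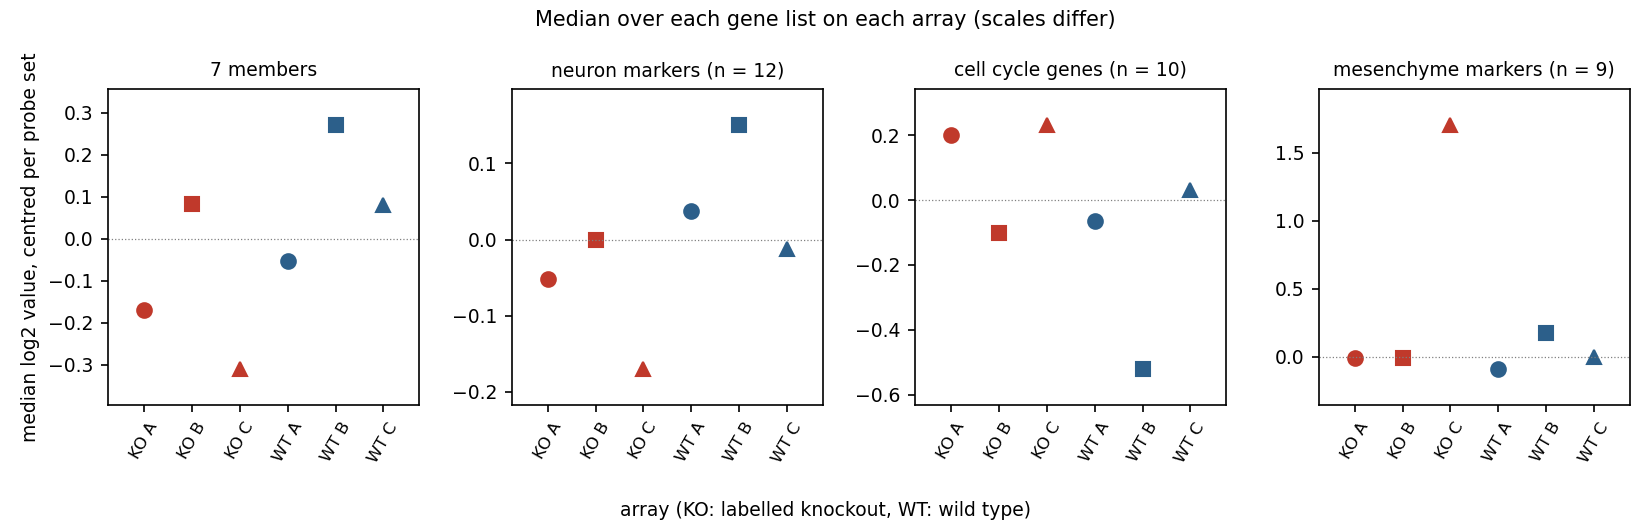
Median log2 value, centred per probe set, over the 7 members, 12 neuron markers, 10 cell cycle genes and 9 mesenchyme markers on each array (KO, labelled knockout, red; WT, wild type, blue). Members and neuron markers are highest in wild type B and lowest in knockout C, cell cycle genes are lowest in wild type B, and mesenchyme markers stand at 1.70 in knockout C; the vertical scales differ.

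Relatives and partners of the family were compared next, 16 genes that were all measured. None passed an adjusted p of 0.05 in limma. With an unadjusted p under 0.05, 1 was lower (St8sia2) and 1 higher (Cd9), against 5.57% of all probe sets in either direction. Of the 16 genes 12 were lower, against 45.0% of all probe sets, with a median of -0.050, but without wild type B the count was 7 and the median 0.009. The groups did not overlap for 2 lower and 3 higher genes of the 16, against 10.9% of complete probe sets in either direction.

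St8sia2 and St8sia4 encode the enzymes that build polysialic acid on NCAM. St8sia2 stood at -0.22, -0.005 and -0.47 in the knockout arrays, against 0.019, 0.13 and 0.005 in the wild-type arrays. The groups lay apart by 0.010, and the difference was -0.28 (SE 0.12, unadjusted p = 0.0498, adjusted p = 0.812 in limma), or -0.16 without knockout C. St8sia4, which the naming rule did not reach, was at -0.36 (SE 0.16, adjusted p = 0.812 in limma) with overlapping groups, and at -0.24 without knockout C. As in Ncam2, Lsamp, Negr1 and Opcml, the lowest array of both enzymes was knockout C and the highest wild type B. That held for 6.35% of complete probe sets, and not for Ncam1, whose lowest array was knockout A.

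Cd9, the tetraspanin partner of Igsf8, stood at 0.20, 0.055 and 0.067 in the knockout arrays, against -0.13, -0.080 and -0.055 in the wild-type arrays. All knockout arrays lay above all wild-type arrays, by a difference of 0.20 (1.15-fold, SE 0.055, 95% interval 0.063 to 0.33, unadjusted p = 0.0108, adjusted p = 0.812 in limma). It stayed between 0.15 and 0.22 with any single array left out. Cd81, the other tetraspanin of the list, was at -0.023 (SE 0.059), with overlapping groups. The 4 relatives, Iglon5 and the EWI-type genes Igsf3, Ptgfrn and Cd101, lay between -0.14 and 0.12, and the 8 genes of NCAM signalling, anchoring and shedding between -0.12 for Gap43 and 0.14 for the receptor gene Fgfr1. These limits moved with single arrays: Gap43 was at -0.025 without knockout C, Fgfr1 at 0.086 without wild type B, Ptgfrn at 0.034 without knockout C and Iglon5 at -0.23 without knockout A.

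Genes whose pattern over the 6 arrays was most like the median of the 7 members were sought among 1476 named genes that varied at least 1.5-fold. The closest by Pearson correlation were Nxph1, which encodes a neurexophilin, Amph, which encodes amphiphysin, and Hecw1, a ubiquitin ligase gene (r = 0.99 each), followed by Lrrtm2, a leucine-rich repeat adhesion gene, and Ehbp1 (r = 0.98 each; Spearman's rho of the 5 at least 0.94). Nxph1 stood at -0.32, 0.10 and -0.68 in the knockout arrays, against -0.10, 0.66 and 0.19 in the wild-type arrays, with wild type B highest and knockout C lowest. The most opposite were Zwilch, a kinetochore gene, and Pot1b, a telomere protein gene (r = -0.99 each), and Rfc4, a subunit gene of the replication clamp loader, Antxr2 and Ak4 (r = -0.98 each). On the 4 arrays other than wild type B and knockout C the values were 0.94 to 0.99 for the first 5 and -0.97 to -0.90 for the last 5. The genes were picked by r over all 6 arrays, those 4 included, so high values there largely follow from the choice. They cannot show whether the likeness rests on wild type B and knockout C. The pattern was common among the 1476 genes, with 162 at r of 0.9 or more and 133 at -0.9 or less. All of these values come from the same 6 arrays, so they describe a likeness over shared samples only.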

How the data were processed

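RNA of 6 cervical spinal cord samples was amplified as whole-transcript cDNA, labelled with biotin and hybridised to expression arrays, per the labels' protocols. The deposited values are log2 values made by the authors with RMA (background correction, normalization between arrays and summary per probe set), per the submitters' processing notes. Its version and settings are not given in the sources used here, and base 2 was assumed as RMA's own. Every complete probe set had a median of 0 within 1e-06, so it had been centred, which hides level and signal over background. In wild type C 24 of 28815 probe sets, none of them a member, had no value, and the fit for those used 5 arrays. Gene symbols came from GEO's platform annotation.

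All probe sets were fitted with limma 3.58.1 (lmFit, eBayes; R 4.3.3), genotype being the sole term, with Benjamini-Hochberg adjustment over the whole table, at a threshold of 0.05. The code was tested on simulated data. For the lists and the likeness search, each gene was represented by its probe set with the most accessions. Named by rule were all members, partners with unadjusted p under 0.05 and the 5 genes at each end of the likeness search, with a range of at least 0.585 on the log2 scale and predicted genes passed over. The other partner genes were named after their values were seen. Promoter motifs were searched in Python 3.11.15. The members and lists were chosen with earlier results of these data known. The alternatives were the letter as a block, quantile normalization, median centring, array weights, a robust variance prior, 1 probe set per gene, the mean over probe sets and each array left out. Filtering dim probes was not possible without levels.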

Additional observations from a re-analysis of the deposited data

How the results depend on the processing

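All 7 members stayed lower in the labelled knockout arrays, and none passed in limma, with quantile normalization, median centring, array weights and each array left out. None passed with a robust prior, 1 probe set per gene or the letter block either, settings that cannot move these log2 differences, and each member has 1 probe set, so averaging over probe sets leaves it as it was. Of all probe sets, 5 passed without knockout A, none of them a member, and 0 under the other settings. The median of the members lay between -0.32 and -0.14 with single arrays left out. Leaving out wild type B and knockout C together, chosen after the data were seen as the arrays with the widest spread, left 5 members lower, with a median of -0.061, Ntm at 0.009 and Negr1 at 0.002; only 4 arrays remain in that fit. For the 16 partner genes, leaving out single arrays gave 7 to 13 lower and medians from -0.083 to 0.009, the last without wild type B, and the cause was not tested.

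The letters were not taken to pair the arrays. Deviations from the group means correlated at 0.16 for A, 0.22 for B and 0.016 for C, against -0.19 to 0.044 between arrays of unlike letters. A and B thus correlated best with their own letter, and C did not. With the letter as a replicate block the median of the members was -0.25. Then 3 members, Ncam2, Lsamp and Opcml, had an unadjusted p under 0.05 in limma, Igsf8 no longer did, and none passed. The block lowered the SE of every member but Igsf8, from 0.27 to 0.084 for Ncam2 and from 0.10 to 0.065 for Lsamp. For Igsf8 it was 0.046, against 0.042 without the block. Over all probe sets 1253 lower and 1299 higher had an unadjusted p under 0.05, against 719 and 886 without it. Since levels were removed, how far each member stood over background, and so how much its difference may be compressed, could not be seen.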
